A study of Mus musculus with 2 samples.

Results

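Genes of glycolysis and of the response to low oxygen were examined in differentiating mouse ESCs with and without an induced deletion of Ino80, the ATPase of a chromatin remodelling complex. The 48 genes were chosen by name, with earlier results of these data known. They are the glucose and lactate transporters, the glycolytic enzymes, the kinases that set flux through the pathway, the HIF subunits, the oxygen sensing genes and a set of other HIF targets. All 48 were found among the 24354 genes with an FPKM value, which is a count of fragments scaled by transcript length and library size. The control cells (Diff–CONT) have the genotype WT in the sample labels, whereas the study's methods describe them as homozygous for a floxed Ino80 allele (Ino80 2f/2f) without Cre. The inducible knockout cells (Diff–iKO) carry the same floxed alleles together with ROSA26-CreER, a Cre that is expressed broadly and activated by tamoxifen. Both ESC lines were derived from blastocysts, and how many clones stand behind each is not given in the sources used here. Both were grown as EBs (embryoid bodies), moved to gelatin-coated dishes on day 4 and then kept for 7 days in differentiation medium with BMP4 and 0.5 µM 4-OHTM, the tamoxifen form that activates CreER. Each group was 1 library, so no difference has a replicate check and no p-value is given.

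Glycolysis converts glucose to pyruvate in the cytosol, and lactate dehydrogenase with the lactate transporters removes the product when pyruvate is not burned in mitochondria. Pluripotent cells and early embryonic tissues are known for high glycolytic activity. HIF is a dimer of an oxygen-sensitive alpha subunit and the stable partner Arnt. In normal oxygen the Egln prolyl hydroxylases mark the alpha subunit and Vhl directs its degradation, so the amount of HIF is set largely at the protein level and the mRNA of its subunits does not report it. When stable, HIF raises many glycolytic genes and also its own inhibitors, Egln3 among them. The oxygen level of the cultures is not given in the sources used here.

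Throughout, values are given as pairs with Diff–CONT first, and log2 ratios are of the knockout-labelled library to the control. The targeted gene did not separate the libraries as labelled, because Ino80 had FPKM values of 8.90 and 10.3 (0.21, interval 0.11 to 0.31), and a value for the whole gene does not resolve the deleted part. The second library is therefore called the library labelled Diff–iKO. Xist, the RNA of the inactive X chromosome, had FPKM values of 0.0639 and 3.59, and 4 Y-linked genes had between 16.0% (Uty, 4.14 and 0.664) and 46.5% (Ddx3y, 4.07 and 1.89) of their Diff–CONT level. About 27604710 and 21465158 fragments lay on genes. The approximate number of fragments of a gene gave the exact (Clopper-Pearson) 95% interval printed with its log2 ratio in parentheses, and such an interval holds counting error alone. A gene was past the cut-off with an FC of at least 2 and an FPKM of at least 2 in at least 1 library, and "rose" and "fell" are used for those genes only.

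In the library labelled Diff–iKO, most of the glycolysis and hypoxia genes were lower. Ldha, which encodes the lactate dehydrogenase subunit that favours lactate production, fell from an FPKM of 910.0 to 350.1, while its paralogue Ldhb rose from 95.1 to 195. The lactate transporter gene Slc16a1 fell from 139 to 47.4, the mitophagy receptor gene Bnip3 from 81.8 to 29.2 and the oxygen sensor gene Egln1 from 34.2 to 15.0. Of the 46 genes of the set that reached the FPKM minimum, 11 (23.9%) fell, against 8.39% of all 12376 genes that reached it. Another 2 (4.35%) rose, against 6.73% of all those genes. The set was chosen with earlier results of these data known, so these shares are a description and not an independent test. Those that fell were Slc16a1, Aldoc, Tpi1, Eno3, Ldha, Pdk2, Hif3a, Egln1, Egln3, Bnip3 and G0s2, and those that rose were Ldhb and Car12. Hif3a, G0s2 and Car12 reached the FPKM minimum in 1 library only, and Pgam2 and Car9 were under it in both.

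Many further genes were lower by less than the cut-off. The median log2 ratio, taken with 0.1 added to each FPKM, was -0.56 over the 47 genes of the set whose mean FPKM was 1 or more, and 37 of them (78.7%) were lower. Over all 13145 genes at that level the median was -0.01 and 50.7% were lower. The counting interval lay below 0 for 36 of the 47 genes and above 0 for 6. Such intervals are narrow at this depth, and the same count was not made over all genes. Of 16 TCA cycle genes, described below, 6 had an interval below 0 and 7 above. Summed, the 48 genes made up 1.99% and 1.21% of all FPKM, shares that do not depend on how the libraries were scaled to each other. Among the 100 genes with the highest FPKM, 6 were from this set in Diff–CONT (Gapdh, Pkm, Slc2a3, Ldha, Slc2a1 and Aldoa) and 3 in the other library (Gapdh, Pkm and Slc2a1).

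**Figure D1:**
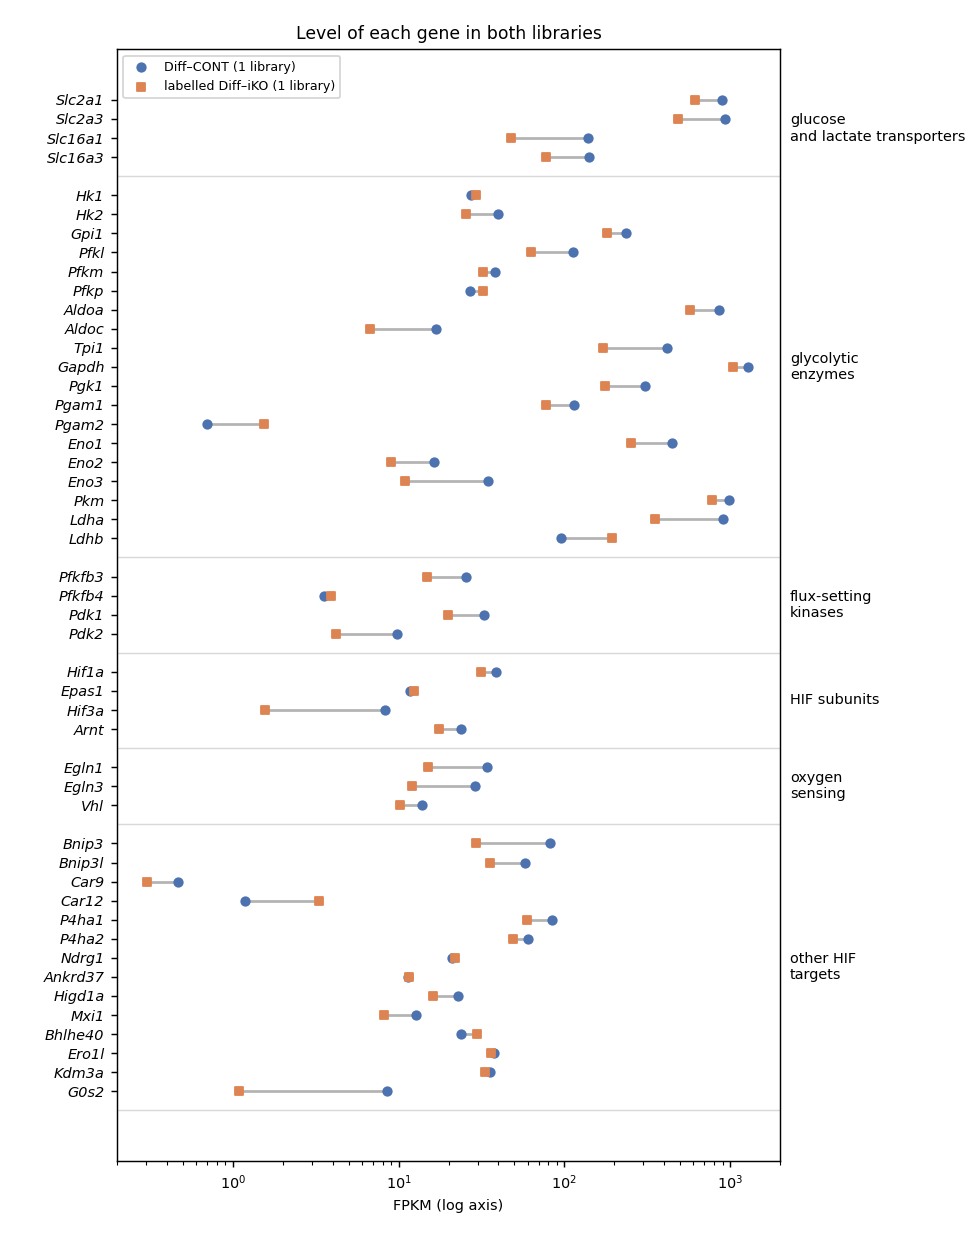
FPKM of each of the 48 genes on a log axis, grouped by role, with a circle for Diff–CONT, a square for the library labelled Diff–iKO and a line joining each pair. Most squares lie to the left of their circles, and exceptions include Ldhb (95.1 and 195) and Car12 (1.19 and 3.30).

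These cultures were mixtures, and marker genes of several cell types differed between the libraries. In bulk RNA, fewer cells of a type and less RNA per cell cannot be told apart. All 7 markers of pluripotent ESCs were higher in the library labelled Diff–iKO, with sums of FPKM of 441 and 2827. All 7 visceral endoderm markers were lower (sums 272 and 9.93). The 7 erythroid markers summed to 188 and 0.684, with Hba-x, Hbb-bh1 and Alas2 listed at 0 in the library labelled Diff–iKO. Of 14 striated muscle markers (sums 99.4 and 31.2), the 10 with a mean FPKM of 1 or more were all lower, 8 with an interval below 0. Under that mean, Ttn (0.132 and 0.271, on about 322 and 494 fragments), Myog and Ckm were higher and Ryr2 was lower. Lower values were also found for 8 of 9 neuron markers (142 and 127), 7 of 8 endothelial markers (59.4 and 71.6) and 6 of 7 mesenchyme markers (1364 and 1438). The exceptions were Stmn2, Pecam1 and Col1a1, and of these Pecam1 rose (16.2 to 53.9). Of 7 trophoblast markers (88.6 and 72.7), 4 of the 5 with a mean FPKM of 1 or more were higher. The part of cell composition in the differences of the 48 genes was not tested.

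The DNA before these genes was searched for the core of the hypoxia response element, the sequence that HIF binds. The core was spelled ACGTG or GCGTG on either strand, and overlapping matches were merged to 1 site. ACGTG is part of the palindrome CACGTG, which is also the E-box bound by MYC and other basic helix-loop-helix factors. RefSeq promoters (GRCm38.p6) from 250 bases before to 50 bases after a start site matched 42 of the 48 genes in 60 windows, and Slc2a3, Epas1, Bnip3l, Ndrg1, Bhlhe40 and Ero1l had no entry. A core lay in 45 of the 60 windows, against 43.8% of all 32851 promoter windows. ACGTG lay in 29 (48.3%), against 19.6%. The windows of the set were richer in G and C (61.9% on average, against 53.8%), and among all 8134 windows with 55 to 65% G and C the shares were 58.8% for the core and 24.8% for ACGTG. Among the 5809 windows richer still they were 71.7% and 26.3%, and the windows of the transporters, oxygen sensing genes and other HIF targets averaged 70.8%, 67.8% and 65.3% G and C. Of the 11 genes that fell, 10 had a core in at least 1 window and Tpi1 had none. Of 29 matched genes not past the cut-off 25 had one, and of the 2 that rose 1 had one. Counted by gene, 12628 of all 27025 had one. In windows with 55 to 65% G and C it was 4459 of 7366 genes, and in richer windows 3804 of 5221. These are matches of letters and not measured binding.

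The 250 bases before a RefSeq start site are printed for 1 gene that fell from each of the enzymes, other HIF targets, transporters and oxygen sensing genes, and for Ldhb, which rose. Capitals mark the cores. The stretch of Ldha (chr7:46845554-46845803, plus strand) holds 3 sites and that of Bnip3 (chr7:138909507-138909756, minus strand) 4. The stretch of Slc16a1 (chr3:104638414-104638663, plus strand) holds 3, that of Egln3 (chr12:54203875-54204124, minus strand) 1 and that of Ldhb (chr6:142507958-142508207, minus strand) 1. CACGTG stands at the first 2 sites of Ldha, the second of Bnip3 and the first of Slc16a1. The Ldha stretch lies inside the longer gene given by GENCODE, which also has a start further upstream.
Ldha: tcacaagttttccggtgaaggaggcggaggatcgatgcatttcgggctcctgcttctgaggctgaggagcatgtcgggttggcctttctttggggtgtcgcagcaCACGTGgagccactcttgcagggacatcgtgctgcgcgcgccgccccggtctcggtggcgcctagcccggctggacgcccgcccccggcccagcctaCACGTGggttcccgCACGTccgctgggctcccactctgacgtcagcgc
Bnip3: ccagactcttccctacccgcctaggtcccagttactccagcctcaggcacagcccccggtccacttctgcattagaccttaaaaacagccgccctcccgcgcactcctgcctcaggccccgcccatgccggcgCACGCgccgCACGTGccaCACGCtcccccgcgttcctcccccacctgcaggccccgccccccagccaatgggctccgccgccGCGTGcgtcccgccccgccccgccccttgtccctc
Slc16a1: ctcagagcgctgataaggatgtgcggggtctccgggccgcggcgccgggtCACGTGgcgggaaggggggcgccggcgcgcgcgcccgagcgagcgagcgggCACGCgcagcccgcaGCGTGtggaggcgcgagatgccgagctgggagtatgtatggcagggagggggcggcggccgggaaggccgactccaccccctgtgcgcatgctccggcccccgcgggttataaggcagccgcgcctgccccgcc
Egln3: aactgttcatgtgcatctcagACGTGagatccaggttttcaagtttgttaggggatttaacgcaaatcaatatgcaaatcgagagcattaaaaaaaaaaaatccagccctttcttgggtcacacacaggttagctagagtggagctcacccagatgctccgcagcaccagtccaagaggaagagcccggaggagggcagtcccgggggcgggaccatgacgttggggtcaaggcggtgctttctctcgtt
Ldhb: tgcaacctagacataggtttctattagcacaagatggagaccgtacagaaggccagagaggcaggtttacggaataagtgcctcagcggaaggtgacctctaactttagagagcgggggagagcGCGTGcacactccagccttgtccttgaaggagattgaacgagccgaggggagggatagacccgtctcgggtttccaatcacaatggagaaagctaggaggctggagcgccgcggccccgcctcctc

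All 4 transporter genes, at the start and the end of the pathway, had lower values in the library labelled Diff–iKO. Slc2a1 (GLUT1, chromosome 4, 119108711-119137983 of GRCm38), the widely expressed glucose transporter, had FPKM values of 894 and 613 (-0.54, interval -0.56 to -0.53). Slc2a3 (GLUT3), a high-affinity glucose transporter, had 933 and 483 (-0.95, interval -0.97 to -0.93), just short of the cut-off as deposited and past it (-1.04) when the libraries were scaled to the same sum. Together these genes kept 60.0% of their Diff–CONT level. Slc16a1 (MCT1, chromosome 3, 104638668-104658462), which carries lactate across the plasma membrane in either direction, fell to 34.1% of its Diff–CONT FPKM (-1.55, interval -1.60 to -1.51). Slc16a3 (MCT4), the lactate exporter of glycolytic cells, had 142 and 77.5 (-0.87, interval -0.93 to -0.81). Bsg, the chaperone of both lactate transporters and not one of the 48 genes, had 514 and 528 (0.04, interval 0.0048 to 0.07).

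From glucose uptake to lactate transport, the summed FPKM of each of 13 steps was lower in the library labelled Diff–iKO. The sums kept between 41.2% of their Diff–CONT level at triosephosphate isomerase and 81.5% at hexokinase. The 19 enzyme genes had a median log2 ratio of -0.60, with 15 lower and 4 higher. Of the 18 that reached the FPKM minimum, 4 fell (22.2%, against 8.39% of all genes) and 1 rose (5.56%, against 6.73%). They made up 1.36% and 0.852% of all FPKM.

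In the steps that spend ATP, isozymes differed in direction. Hk2, the inducible hexokinase, had FPKM values of 40.002 and 25.7 (-0.64, interval -0.70 to -0.58), whereas Hk1, the constitutive form, had 27.3 and 29.2 (0.10, interval 0.02 to 0.17). Hk1 made up 40.6% and 53.2% of the hexokinase sum. Gpi1, which isomerises glucose 6-phosphate, had 236 and 181 (-0.38, interval -0.42 to -0.35).
The phosphofructokinases commit sugar to glycolysis. Pfkl (liver type) had 114 and 63.0 (-0.85, interval -0.90 to -0.80), Pfkm (muscle type) had 38.4 and 32.2 (-0.25, interval -0.34 to -0.17), and Pfkp (platelet type) had 26.8 and 32.3 (0.27, interval 0.18 to 0.36). The share of Pfkl in their sum was 63.5% and 49.4%. An exon of Pfkp shares up to 748 bases with Pitrm1 on the opposite strand (FPKM 44.5 and 42.5), and although the library kit was stranded, the strand setting of the counting is not given in the sources used here.
The aldolase step splits the sugar into triose phosphates. Aldoa, the main form, had 862 and 570.1 (-0.60, interval -0.62 to -0.57). Aldoc, the brain form, fell from 16.9 to 6.68 (-1.34, interval -1.56 to -1.12) but was only 1.92% and 1.16% of the aldolase sum. Tpi1 (chromosome 6, 124810586-124814296), which interconverts the trioses, fell from 416 to 171 (-1.28, interval -1.32 to -1.23), and as the single gene of its step it had the lowest sum relative to Diff–CONT.

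In the steps that gain ATP, Gapdh and Pkm were the most abundant genes and had the log2 ratios closest to 0. Gapdh had the highest FPKM of the set, 1279 and 1041 (-0.30, interval -0.32 to -0.27), and Pkm, the pyruvate kinase of non-liver tissues, had 989.6 and 776 (-0.35, interval -0.37 to -0.33). Pgk1, which makes the first ATP, had 304.5 and 176 (-0.79, interval -0.83 to -0.75). It is X-linked, and the median log2 ratio of 457 X-linked genes was 0.17, above the range of the 19 autosomes (-0.08 to 0.06). Pgam1, the mutase that follows, had 115 and 77.5 (-0.56, interval -0.63 to -0.50), and its muscle paralogue Pgam2 had 0.694 and 1.54 on about 14 and 23 fragments.
The 3 enolase genes were all lower. Eno1, the general form, had 444 and 252 (-0.81, interval -0.85 to -0.78), and Eno2, the neuronal form, had 16.3 and 9.02 (-0.85, interval -1.01 to -0.69) where 8 of 9 neuron markers were also lower. Eno3, the muscle form, fell from 34.8 to 11.0 (-1.66, interval -1.85 to -1.49), the lowest ratio among the enzymes. Of 14 striated muscle markers, the 10 with a mean FPKM of 1 or more were also lower, while Ttn, Myog and Ckm, under that mean, were higher. The part of neurons or muscle in the differences of Eno2 and Eno3 was not tested. Genes such as Gapdh, Pgk1, Eno1 and Ldha have near-identical pseudogene copies, and how fragments shared with copies were assigned is not given in the sources used here, so their values are uncertain to that extent.

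**Figure D2:**
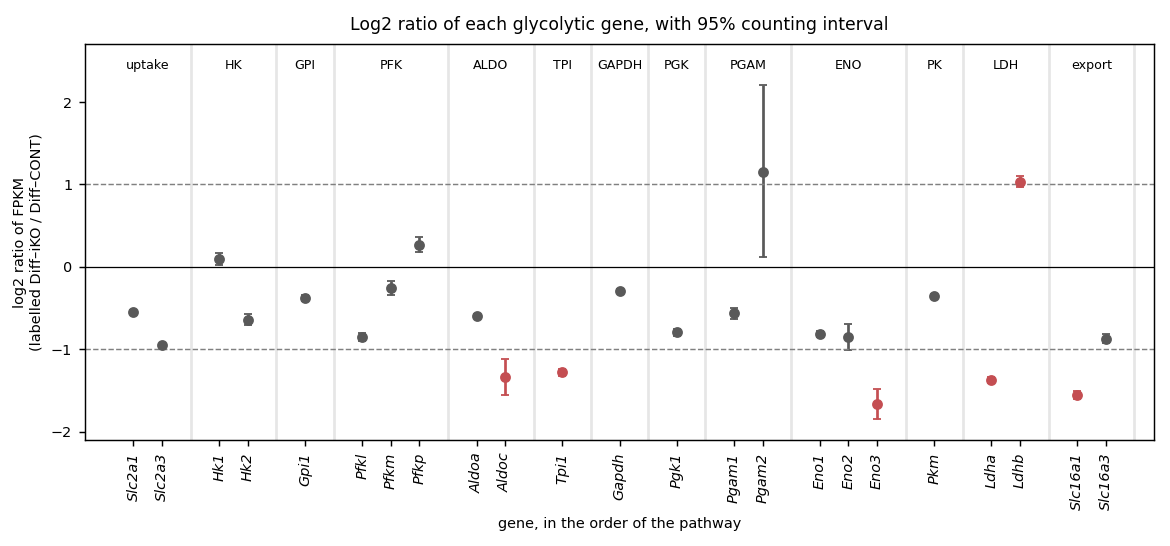
Log2 ratio of FPKM (library labelled Diff–iKO to Diff–CONT, 1 library each) for the transporter and enzyme genes in pathway order, with exact 95% counting intervals as bars, dashed lines at an FC of 2 and red for genes past the cut-off. Ldhb (1.03) stands opposite Ldha (-1.38), and the wide bar of Pgam2 rests on about 14 and 23 fragments.

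The largest shift between isozymes was at lactate dehydrogenase. Ldha (chromosome 7, 46841475-46855627) had a log2 ratio of -1.38 (interval -1.41 to -1.34), and Ldhb (chromosome 6, 142490249-142507957), the heart-type subunit that favours the use of lactate, had 1.03 (interval 0.97 to 1.10). Ldhb made up 9.47% and 35.7% of the FPKM of the pair, a difference of 26.3 percentage points. The sum of the pair was 1005 and 545. Ldhb was past the cut-off with the values as deposited but not when the libraries were scaled to the same sum, and its interval includes the cut-off.
Over 15 families of isozymes or paralogues, the largest shift of a share was at least 10 percentage points in 7 and under 5 in 5. The 7 were Ldha/Ldhb, Car9/Car12, Pfkl/Pfkm/Pfkp, Bnip3/Bnip3l, Hk1/Hk2, Slc16a1/Slc16a3 and Hif1a/Epas1/Hif3a. The shift of Car9/Car12 rests on about 26 and 12 fragments of Car9, and with genes under an FPKM of 1 in both libraries left out, Car12 is 100% of the pair and 6 families remain. In the lactate transporters Slc16a3 held 50.4% and 62.0%, and in the mitophagy receptors Bnip3l held 41.5% and 54.8%. Egln1 held 54.3% and 55.4% of the Egln1 and Egln3 sum.

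**Figure D3:**
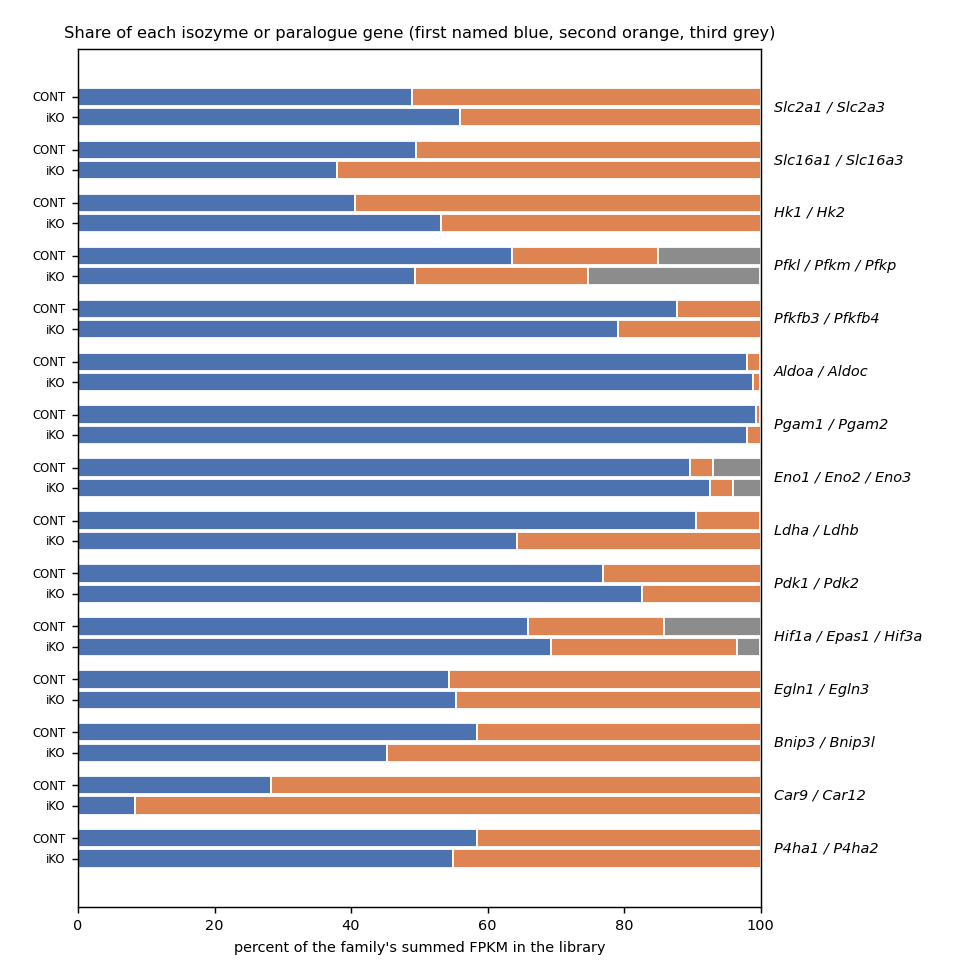
Percent of each family's summed FPKM from each gene, with bars marked CONT for Diff–CONT and iKO for the library labelled Diff–iKO, and colours in the order of the gene names. Ldhb makes up 9.47% and 35.7% of its pair, while Aldoa makes up 98.1% and 98.8% of its pair.

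The 4 kinases that steer carbon into or out of glycolysis had a median log2 ratio of -0.74. Pfkfb3, which makes the sugar phosphate that activates phosphofructokinase, had FPKM values of 25.4 and 14.8 (-0.78, interval -0.95 to -0.62), and its paralogue Pfkfb4 had 3.56 and 3.91 (0.14, interval -0.09 to 0.37). The pyruvate dehydrogenase kinases block the entry of pyruvate into mitochondrial oxidation. Pdk1, the hypoxia-induced one, had 32.6 and 19.978 (-0.71, interval -0.78 to -0.64). Pdk2 fell from 9.77 to 4.19 (-1.22, interval -1.47 to -0.99), with an interval that includes the cut-off.

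Among the 4 HIF subunits, Hif3a was the gene past the cut-off (25%, against 8.39% of all genes). Hif1a, the main oxygen-labile subunit, had FPKM values of 38.5 and 31.5 (-0.29, interval -0.35 to -0.22), and Arnt had 23.8 and 17.5 (-0.45, interval -0.56 to -0.33). Epas1 (HIF-2 alpha), which is prominent in endothelium, had 11.7 and 12.4 (0.09, interval -0.0048 to 0.19). Of 8 endothelial markers 7 were lower, 6 of them with an interval below 0, and Pecam1 rose from 16.2 to 53.9. The part of endothelium in the values of Epas1 was not tested. Hif3a (chromosome 7, 17031507-17062427), whose products include inhibitors of HIF, fell from 8.27 to 1.56 (-2.41, interval -2.80 to -2.05), on about 500 and 70 fragments. With 1 added to each FPKM its log2 ratio was -1.86. Hif3a made up 14.2% and 3.42% of the alpha subunit sum.

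The 3 oxygen sensing genes were all lower. Egln1 (PHD2, chromosome 8, 124908587-124949324), the main HIF prolyl hydroxylase, fell from 34.2 to 15.0 (-1.18, interval -1.28 to -1.09). Egln3 (PHD3, chromosome 12, 54178981-54203860), a hydroxylase that HIF induces, fell from 28.7 to 12.1 (-1.25, interval -1.37 to -1.12). Vhl, the substrate receptor of the ligase that removes the alpha subunit, had 13.9 and 10.2 (-0.44, interval -0.59 to -0.29). Egln2 and Hif1an, the other HIF hydroxylase genes and not among the 48, had 24.2 and 25.4, and 17.3 and 16.1, with no difference past the cut-off.

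The other HIF targets did not move as one. Over the 13 of 14 with a mean FPKM of 1 or more the median was -0.29, with 9 lower and 4 higher. Bnip3 and G0s2 fell (15.4%, against 8.39% of all genes) and Car12 rose (7.69%, against 6.73%), and G0s2 and Car12 reached the FPKM minimum only in the library where they were high. Both mitophagy receptor genes were lower. Bnip3 (chromosome 7, 138890836-138909519) fell (-1.48, interval -1.59 to -1.39). Bnip3l, which also clears mitochondria from maturing red cells, had 58.0 and 35.4 (-0.71, interval -0.78 to -0.64), where the erythroid markers were at 0 to 0.297 in the library labelled Diff–iKO. G0s2 (chromosome 1, 193272161-193273217), an inhibitor of the lipase that breaks down stored fat, fell from 8.47 to 1.08 on about 174 and 17 fragments (-2.97, interval -3.75 to -2.21), the lowest ratio of the 48 genes, and had -2.19 with 1 added to each FPKM.
Several known HIF targets differed little. Ndrg1, a stress-response gene, had 20.9 and 21.7 (0.06, interval -0.05 to 0.16). Ankrd37 had 11.3 and 11.5 (0.02, interval -0.26 to 0.30), and Ero1l, which forms disulfide bonds in the endoplasmic reticulum, had 37.5 and 36.3 (-0.05, interval -0.11 to 0.02). The intervals of these 3 genes include 0. The histone demethylase gene Kdm3a had 35.7 and 33.4 (-0.10, interval -0.16 to -0.03). Bhlhe40, a transcriptional repressor gene, was higher beyond counting error at 23.8 and 29.9 (0.33, interval 0.24 to 0.42).
The collagen prolyl hydroxylase genes were lower in both cases. P4ha1 had 84.8 and 59.8 (-0.50, interval -0.57 to -0.44), and P4ha2 had 60.2 and 49.1 (-0.30, interval -0.37 to -0.22). Higd1a, a mitochondrial protein gene, had 22.7 and 16.1 (-0.50, interval -0.63 to -0.37), and Mxi1, an antagonist of MYC, had 12.8 and 8.14 (-0.65, interval -0.94 to -0.37).
The membrane carbonic anhydrases had low FPKM. Car12 rose from 1.19 to 3.30 on about 123 and 254 fragments (1.47, interval 1.15 to 1.79), with a ratio of 0.97 when 1 was added to each FPKM. Car9, often used as a marker of hypoxia, had 0.470 and 0.302 on about 26 and 12 fragments, and its interval of -1.81 to 0.34 gives no direction.

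Pathways that share substrates with glycolysis were described by the same measures. The 16 TCA cycle genes had a median of 0.06, with 10 higher and 6 lower. Of those with the highest FPKM, Mdh2, malate dehydrogenase, had 177 and 285 (0.69, interval 0.64 to 0.74) and Cs, citrate synthase, had 91.6 and 96.8. Suclg2, a succinate-CoA ligase subunit, was the gene past the cut-off (6.25%, against 8.39% of all genes). It fell from 25.3 to 5.32 (-2.25, interval -2.44 to -2.07). The 11 genes of pyruvate entry into mitochondria had a median of 0.15 and none was past the cut-off. Of all genes 6.73% rose and 8.39% fell, so few calls would be looked for among 11. Pdha1 had 64.0 and 75.1, Pdhb had 53.4 and 61.7 and Dld had 50.0 and 43.8. Of the 7 pentose phosphate genes, 5 were higher (median 0.19), and 2 rose (28.6%, against 6.73% of all genes). These were Taldo1 from 88.9 to 218 (1.29, interval 1.22 to 1.36) and Rpe from 15.0 to 33.1 (1.14, interval 1.04 to 1.25). Tkt (126 and 112) and Pgd (52.6 and 58.8) were not past the cut-off. The medians of the transporters, enzymes and oxygen sensing genes were -0.91, -0.60 and -1.18. Scaling the libraries to the same sum moves every log2 ratio by -0.09, which takes the TCA cycle median below 0. The difference between the lists was not tested.

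**Figure D4:**
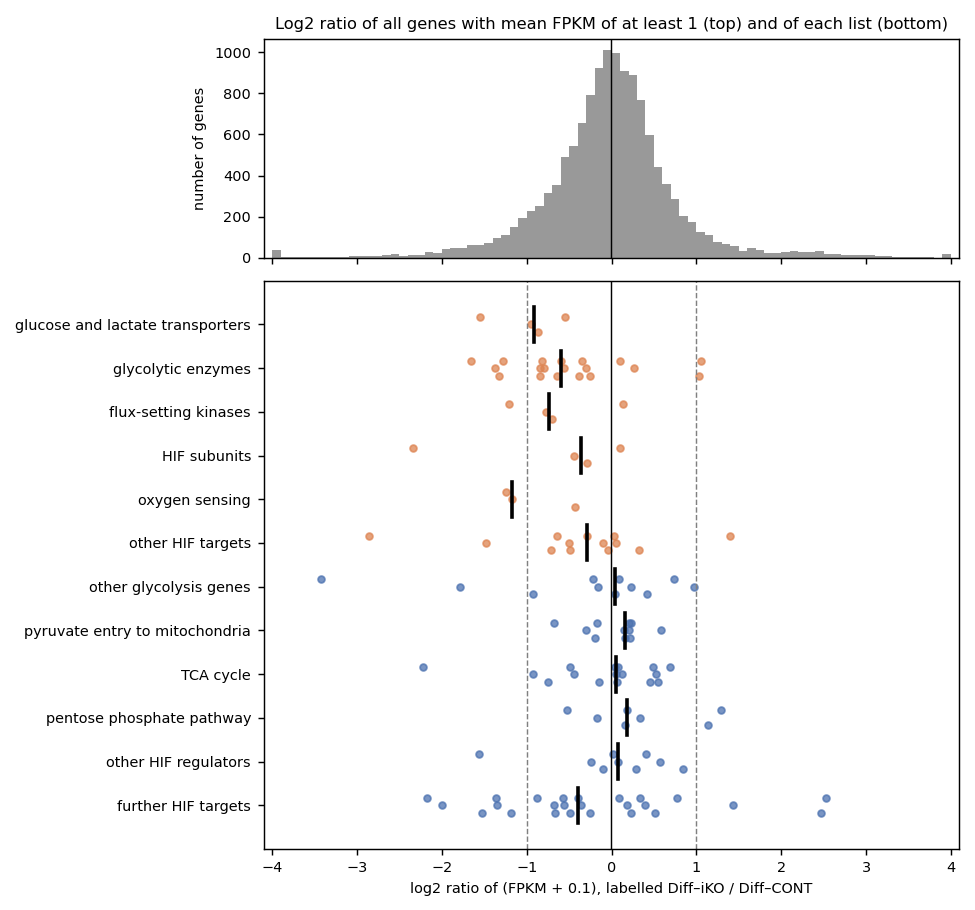
Log2 ratio with 0.1 added to each FPKM, for all 13145 genes with a mean FPKM of 1 or more (top, values beyond 4 in either direction drawn at 4) and for each list (bottom, the groups of the 48 genes in orange and other lists in blue), where points are genes, thick bars medians and dashed lines an FC of 2. The transporters, enzymes and oxygen sensing genes centre at -0.91, -0.60 and -1.18, and the TCA cycle at 0.06.

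HIF targets outside the set differed in both directions. Of 25 such genes that reached the FPKM minimum, 6 fell (24%, against 8.39% of all genes) and 3 rose (12%, against 6.73%), with a median log2 ratio of -0.39. Of those, Nrn1, Selenbp1, Ppp1r3c and Angptl4 reached the minimum only in the library where they were high. Vegfa, the vascular growth factor gene, fell from 107 to 41.9 (-1.35, interval -1.50 to -1.19), Ddit4, an inhibitor of mTORC1, from 83.1 to 36.4, and Stc2, which encodes a secreted glycoprotein, from 10.2 to 3.91. Nrn1 (4.99 to 1.02), Selenbp1 (4.56 to 1.52) and the glycogen-targeting subunit gene Ppp1r3c (5.10 to 1.20) also fell. Among those that rose were Angptl4, a lipase inhibitor, from 1.77 to 10.7, and Hmox1, heme oxygenase, from 29.3 to 79.2. The abundant Loxl2 (141 and 187) and Fam162a (157 and 107) were not past the cut-off.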

How the data were processed

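Poly(A) RNA was sequenced in 1 library per group, prepared with a strand-specific kit. The authors deposited FPKM values, and the submitters' processing notes name STAR 2.7.9a, Cuffnorm, Cufflinks 2.2.1 and mm10. The gene annotation, the strand setting of the counting and the treatment of multi-mapping fragments are not given in the sources used here. The name of each column gave its library, and there were 0 further columns of values.

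Log2 ratios were taken without a pseudocount, and medians with a pseudocount of 0.1. Fragments were recovered from the steps in which FPKM rises. In transcripts of at least 1000 nt, 87.7% and 87.5% of low values lay within 0.2 of a whole multiple, against 40% by chance. Fragments per gene used the shortest RefSeq-matched transcript of GENCODE vM21 (GRCm38) less 186 nt, so they are approximate, and 1039 genes had no length. Coordinates are from that annotation. Of the 48 genes, 16 share exonic bases with a gene on the opposite strand. The steps were tested on simulated data.

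The 48 genes and all lists were chosen with earlier results of these data known. Named genes are the 48, Ino80 and, of each pathway list, the 3 with the highest mean FPKM and those past the cut-off, of which 2 are not reported here. Xist, Uty, Ddx3y, Egln2, Hif1an, Pitrm1 and the cell type markers given by name, the erythroid genes listed at 0 among them, fall outside the rule. They were chosen once their values had been seen. Alternatives were other FPKM and fold minimums, pseudocounts and 3 scalings. The software was matplotlib 3.10.9, scipy 1.17.1, pandas 2.3.3 and numpy 2.4.6 under Python 3.11.15.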

Additional observations from a re-analysis of the deposited data

How the results depend on the processing

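With a fold change of 1.5 the 11 genes that fell became 23, and 17.6% of all genes passed. With a fold change of 4 they became 2, and 1.92% of all genes passed. Under the other settings of FPKM minimum, pseudocount and scaling they numbered 9 to 12, against 5.10% to 14.7% of all genes. The 2 that rose became 1 with an FPKM of 2 required in both libraries, against 4.37% of all genes. They became 1 with a pseudocount of 1 (5.22% of all genes) and 1 with the libraries scaled to the same sum (5.70%). With a fold change of 4 they became 0 (2.25%). An FPKM minimum of 1 gave 3 (7.86%), and no minimum gave 3 (14.9%). Scaling to the same sum moved all log2 ratios by -0.09 and the median of all genes to -0.10. It put the medians at -0.66 over all genes of the set, -1.003 for the transporters, -0.69 for the enzymes, -0.46 for the HIF subunits and -0.39 for the other HIF targets. Under it 63.6% of all genes past the cut-off were lower, against 55.5% as deposited, and Ndrg1 and Ankrd37 changed sign. With no minimum on mean FPKM the median of the other HIF targets was -0.39. Leaving out genes under an FPKM of 1 in both libraries removed Car9, so that Car12 was 100% of its pair. Low counts limit Pgam2, Car9 and G0s2, each with a library under 20 fragments. Leaving out a replicate was not possible with 1 library per group.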

Other observations

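Glycolysis genes outside the set were mostly low or differed little. Of 22 such genes, 11 had a mean FPKM of at least 1, with a median log2 ratio of 0.04. Of the 10 that reached the FPKM minimum, 2 fell (20%, against 8.39% of all genes). Slc2a4, the insulin-responsive glucose transporter gene, fell from an FPKM of 4.75 to 1.30 (-1.87, interval -2.26 to -1.49), and Hkdc1, a gene of the hexokinase family, fell from 5.17 to 0.392 (-3.72, interval -4.32 to -3.19). Both reached the FPKM minimum of 2 in Diff–CONT only, and with 1 added to each FPKM their log2 ratios were -1.32 and -2.15. Pgm2, a phosphoglucomutase gene, had 52.1 and 27.4 (-0.93, interval -1.02 to -0.84), and Adpgk, the ADP-dependent glucokinase gene, had 29.9 and 50.1 (0.74, interval 0.66 to 0.83).

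Of 9 other regulators of HIF (median 0.07), Arnt2, a paralogue of Arnt, fell from 6.47 to 2.12 (-1.61, interval -1.80 to -1.42). It was the 1 gene of that list past the cut-off (11.1%, against 8.39% of all genes). Elob, a subunit of the Vhl ligase complex matched by an older symbol, had 288 and 515. Cited2, which competes with HIF for a coactivator, had 45.8 and 60.7 (0.41, interval 0.32 to 0.49), and Ube2s, a ubiquitin-conjugating enzyme gene, had 70.2 and 104.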
